A study of Drosophila melanogaster with 7 samples.

Results

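ROW-only regions are places on the chromosomes of Drosophila melanogaster S2 cells where ROW was mapped and none of HP1c, Dsk2, WOC or Z4 was. They were chosen by the positions of the called regions themselves. The 5 deposited lists were pooled, regions that shared at least 1 bp were chained into merged regions, and merged regions to which the ROW list alone contributed were kept. This gave 3437 regions of the 13044 merged regions (26.3%, exact 95% interval 25.6 to 27.1%), and 38.2% of the 8999 ROW regions. Each held a single ROW region. The set depends on the Z4 list in particular, since 6696 regions had ROW alone when Z4 was left out. The absence of the other proteins and the size of the set follow from the rule and are given as a description. Absence here means that no region was called, not that the protein was shown to be missing.

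ROW is a zinc-finger protein related to WOC, and both are known as companions of HP1c, a heterochromatin protein 1 family member found mainly in euchromatin. Dsk2 is a ubiquilin, a protein with ubiquitin-binding and ubiquitin-like domains, while Z4 has zinc fingers as well and is found in the interbands of polytene chromosomes. The ROW-only regions are the called ROW sites at which none of these companions was called.

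The study used chromatin immunoprecipitation followed by sequencing, in which fragments bound to a protein are recovered with an antibody and sequenced. S2 is a cultured line of embryonic origin, grown here without a stated treatment. Polyclonal antibodies against ROW, WOC, Dsk2 and HP1c (rabbit) and Z4 (guinea pig) gave 1 library each, and 2 input libraries made up the 7 samples. Per the labels, 1 input belonged to WOC, ROW and Z4, and the other to HP1c and Dsk2. The lists held 8999 regions for ROW, 7491 for Z4, 5849 for WOC, 4748 for Dsk2 and 2711 for HP1c, with no score, so the depth of the libraries is unknown. With 1 library per protein no difference between sets of regions could be set against a replicate, and none was tested. Intervals are exact binomial ones that cover the counting of regions only and treat regions as independent.

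ROW-only regions were narrower than the other ROW regions. Their median width was 98 bp, with quartiles of 19 and 278 bp, against a median of 378.5 bp and quartiles of 144 and 851 bp for the 5562 ROW regions that overlapped another list. Among the overlapping regions the median was 265 bp with 1 other list, 428 bp with 2, 669 bp with 3 and 1195.5 bp with all 4. A wide region overlaps other lists more easily, so part of this order is built into the rule, and how large a part was not tested. The ROW-only set held 38.2% of the ROW regions but 15.4% of the ROW length (677 of 4402 kb). Regions over 1000 bp made up 1.98% of the set (68 regions), against 20.1% of the overlapping ROW regions. Only 4 ROW-only regions exceeded 2000 bp, against 363 overlapping ones. Without the Z4 list the ROW-only regions had a median of 177 bp.

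**Figure D1:**
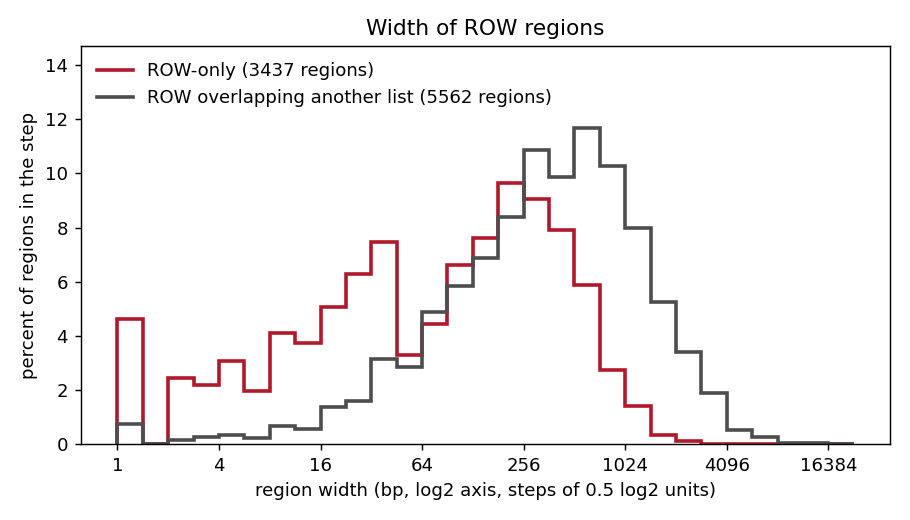
Percent of regions (vertical axis) by width in bp (horizontal log2 axis, steps of 0.5 log2 units) for 3437 ROW-only regions and 5562 ROW regions that overlap another list. On this log2 axis the ROW-only widths form a broad group around 128 to 362 bp and a second group that ends near 40 bp, where the overlapping regions are few.

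On the log2 axis the widths of the ROW-only regions formed 2 groups, with a sharp edge at the end of the narrow one. The wider group belongs to that axis. There were 980 regions at 1 to 24 bp, 449 at 25 to 49 bp, 301 at 50 to 99 bp, 515 at 100 to 199 bp and 651 at 200 to 399 bp, so per base the counts fell from class to class. The ranges given next also span unlike numbers of plotted steps. In the plot of widths, 26.3% of the ROW-only regions measured 128 to 362 bp, against 26.1% of the overlapping ones. A further 13.7% measured 23 to 45 bp, against 4.73% of the overlapping regions, and only 3.29% measured 46 to 63 bp, against 2.84%. Counted base by base, 242 regions were 31 to 40 bp wide and 66 were 41 to 50 bp wide. At exactly 40 bp there were 33 regions, and at 41 bp there were 8. The smallest regions were common too, with 159 that started and ended at the same base and 557 under 10 bp. Of the 200 ROW regions of a single base, 79.5% were ROW-only (exact interval 73.2 to 84.9%). The cause of the edge at 40 bp was not tested.

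The narrow group made up much of the set by number and little of it by length. Regions under 50 bp numbered 1429, or 41.6% (39.9 to 43.2%), against 9.71% (8.94 to 10.5%) of the overlapping ROW regions and 21.9% of all ROW regions. Without the Z4 list, 27.0% of the ROW-only regions were under 50 bp. Among merged regions with 1 other protein alone, those under 50 bp made up 73.1% for Dsk2 (median 28 bp), 57.5% for WOC (median 40 bp), 26.3% for HP1c (median 110 bp) and 18.3% for Z4 (median 205 bp). The 1368 regions of up to 40 bp covered 21.5 kb, and the 2069 wider ones covered 656 kb with a median of 235 bp. Conversely, the share of ROW regions that were ROW-only differed between width classes. It was 79.3% at 1 to 24 bp, 61.3% at 25 to 49 bp, 38.6% at 50 to 99 bp and 41.4% at 100 to 199 bp. It was 36.8% at 200 to 399 bp, 25.5% at 400 to 799 bp and 7.87% from 800 bp upwards. From 50 to 399 bp the share lay between 36.8 and 41.4%, and it was higher in narrower classes and lower in wider ones.

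Most ROW-only regions had another region close by. The distance from the end of a region to the start of the next was at most 500 bp for 2343 of the 3437 regions (68.2%, 66.6 to 69.7%). The other 1094 (31.8%, 30.3 to 33.4%) were isolated by more than 500 bp from every ROW or other region. Of all merged regions, 47.3% were isolated in this sense, a larger share than among the ROW-only regions. The ROW-only share was below those of merged regions with ROW and Z4 alone (52.3%, 50.04 to 54.6%), Z4 alone (57.9%, 54.6 to 61.0%) and WOC alone (58.5%, 55.0 to 62.1%). It was near those of HP1c alone (34.1%, 30.8 to 37.6%) and Dsk2 alone (34.0%, 28.2 to 40.2%). Around the distance limit, 23 regions had their nearest neighbour at 491 to 500 bp and 33 at 501 to 510 bp. Just inside it was a region of 133 bp on 3L (13840392 to 13840524) with a ROW region 500 bp away, and just outside it a region of 1081 bp on chromosome 4 (79246 to 80326) with a ROW region 501 bp away.

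Within 500 bp, more ROW-only regions had a neighbour from the other 4 lists than from the ROW list. This order is partly built in, since 4 lists are set against 1 and no 2 ROW regions lay closer than 301 bp. The nearest region of another list lay at 301 to 400 bp for 218 ROW-only regions and at 401 to 500 bp for 192, and nearer than that for the rest of those with one. A region of another list lay within 500 bp of 1701 ROW-only regions (49.5%, 47.8 to 51.2%), and a ROW region within that distance of 1267 (36.9%, 35.2 to 38.5%). Another list alone supplied the neighbour for 1076 regions (31.3%), the ROW list alone for 642 (18.7%), and both for 625 (18.2%). Regions lay within 500 bp on both sides of 434 ROW-only regions (12.6%) and on 1 side of 1909 (55.5%). Widths overlapped widely between the kinds of neighbour. The median was 107 bp for isolated regions, 143.5 bp beside ROW alone, 100 bp beside ROW and another list, and 72.5 bp beside another list alone. Regions under 50 bp made up 41.5% of the isolated set and 45.4%, 37.4% and 39.5% of the sets with another list alone, with ROW alone and with both. Across the 3437 regions, width and distance to the nearest region had a Spearman rho of 0.044, given as a description since the regions share 1 library.

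Spacing within the ROW list was compared next. A ROW neighbour lay within 500 bp of 36.9% of ROW-only regions (35.2 to 38.5%) and of 35.4% of the overlapping ones (34.2 to 36.7%). No 2 regions of any list lay closer than 301 bp, so a ROW neighbour within 500 bp was always 301 to 500 bp away, and 443 ROW-only regions had theirs at 301 to 350 bp. What was done with closer calls is not given in the sources. Of the 1405 sides on which a ROW neighbour lay within 500 bp, 732 (52.1%) faced another ROW-only region, 584 an overlapping ROW region of up to 2000 bp and 89 (6.33%) one wider than that. A ROW region over 2000 bp lay within 5000 bp of 12.6% of ROW-only regions (11.5 to 13.8%), against 9.002% of the overlapping ROW regions of up to 2000 bp (8.24 to 9.81%).

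Among the other proteins, Z4 and WOC were the most frequent near ROW-only regions. A Z4 region lay within 500 bp of 1030 (30.0%, 28.4 to 31.5%), WOC near 979 (28.5%, 27.0 to 30.0%), Dsk2 near 828 (24.1%, 22.7 to 25.6%) and HP1c near 555 (16.1%, 14.9 to 17.4%). This order followed the lengths of the lists. All 4 proteins came within 500 bp of 168 regions (4.89%), and none came within that distance of 1736 (50.5%). Within 2000 bp, all 4 were present for 677 (19.7%) and none for 667 (19.4%). Median distances were 1157 bp to Z4, 1451 bp to WOC, 2147 bp to Dsk2 and, over the 3434 regions on arms with an HP1c region, 4940 bp to HP1c.

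**Figure D2:**
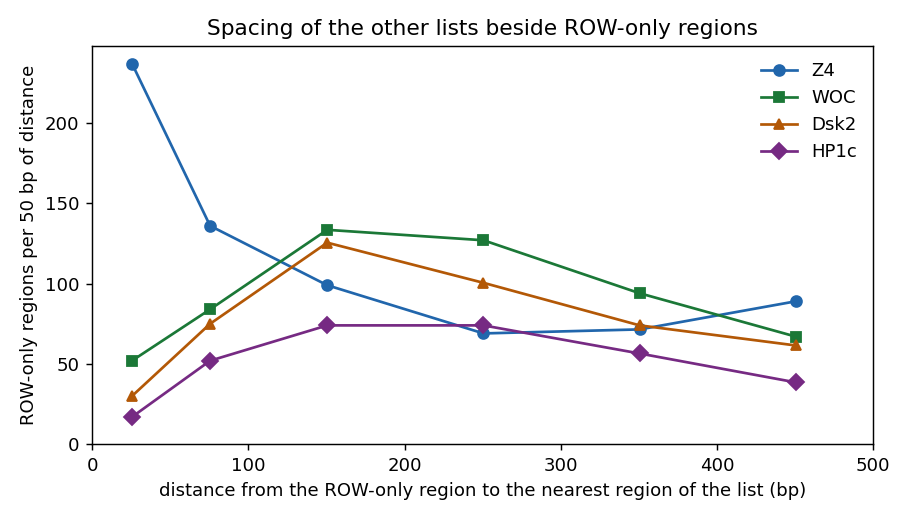
Number of ROW-only regions per 50 bp of distance (vertical axis) by distance to the nearest region of each of the other 4 lists in bp (horizontal axis, points at the middle of each step). Z4 is highest in the first 50 bp (237 regions), while WOC, Dsk2 and HP1c are lowest there and highest at 101 to 200 or 201 to 300 bp.

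The distances at which these neighbours lay differed in shape. Steps of distance up to 100 bp span 50 bp each and later ones 100 bp, so the counts given here are not on 1 scale. The nearest Z4 region lay at 1 to 50 bp for 237 ROW-only regions, at 51 to 100 bp for 136 and at 201 to 300 bp for 138. Each list was counted separately, so another list could lie nearer. WOC showed another order, with 52 regions at 1 to 50 bp, 84 at 51 to 100 bp, 267 at 101 to 200 bp and 254 at 201 to 300 bp. Dsk2 had 30 at 1 to 50 bp and 251 at 101 to 200 bp, and HP1c had 17 and 148. The unscaled Z4 counts farther out were 143 at 301 to 400 bp and 178 at 401 to 500 bp. In the plot of spacing, which scales all counts to 50 bp of distance, Z4 was highest at the edge of the ROW-only region. The other 3 lists were low next to the region and had their maximum beyond 100 bp. A ROW region with Z4 within 50 bp counted as ROW-only because at least 1 shared base was asked for. Of the ROW-only regions of up to 40 bp, 8.63% had Z4 within 50 bp (7.19 to 10.2%), against 5.75% of the wider ones (4.79 to 6.84%).

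Coverage was also read at fixed distances from the midpoints. Z4 covered 7.80% of positions 400 bp to the left of ROW-only midpoints, and 29.0% of those 400 bp to the left of the overlapping ROW midpoints. WOC covered 6.75% beside ROW-only and 14.9% beside overlapping regions, Dsk2 6.02% and 13.6%, and HP1c 3.23% and 3.78%. ROW itself covered 8.06% and 28.4%, since the wider overlapping regions reach this far from their midpoints. The overlapping set was chosen for holding another list and the ROW-only set for holding none. Part of the difference near the midpoints is thus built into the rule, and how large a part was not tested. The 2 sets were closer to each other farther out. At 2000 bp to the left the coverage was 6.69% beside ROW-only and 8.59% beside overlapping regions for Z4, 3.52% and 3.49% for WOC, 3.46% and 3.15% for Dsk2, and 1.66% and 1.37% for HP1c. ROW itself covered 14.6% and 13.97% of these positions. At 2000 bp to the right, Z4 covered 6.75% beside ROW-only and 7.73% beside overlapping regions, and ROW 14.1% and 12.9%.

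The reverse view asked which merged regions had a ROW-only region at their side. Only the next merged region on each side was looked at. A ROW-only region behind a nearer merged region was not counted, and how many each class lost in this way was not determined. The next merged region was ROW-only and within 500 bp for 1200 of the 4638 merged regions without ROW (25.9%, 24.6 to 27.2%). For the 4969 with ROW and another list this held for 784 (15.8%, 14.8 to 16.8%). Where a ROW region is called, the next ROW region is at least 301 bp away, and whether this bears on the lower share was not tested. The larger classes with ROW but without Z4 varied. They had 31.1% for Dsk2, WOC and ROW (42 of 135), 19.5% for WOC and ROW (15 of 77) and 48.1% for HP1c, Dsk2, WOC and ROW (25 of 52). Among the classes without ROW the share was 33.3% for HP1c, Dsk2, WOC and Z4 together (67 of 201), 31.8% for HP1c, Dsk2 and WOC (90 of 283) and 30.9% for Dsk2, WOC and Z4 (128 of 414). Where 1 protein stood alone, HP1c had 29.9% (26.7 to 33.2%) and Z4 had 29.7% (26.8 to 32.8%), while Dsk2 had 14.2% (10.2 to 19.2%) and WOC had 17.2% (14.6 to 20.1%). Merged regions flanked by ROW-only regions on both sides numbered 118 of the 4638 without ROW (2.54%). They were 52 of the 1380 that held HP1c (3.77%) and 51 of the 1839 that held Z4 (2.77%), and 1 region can hold both.

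**Figure D3:**
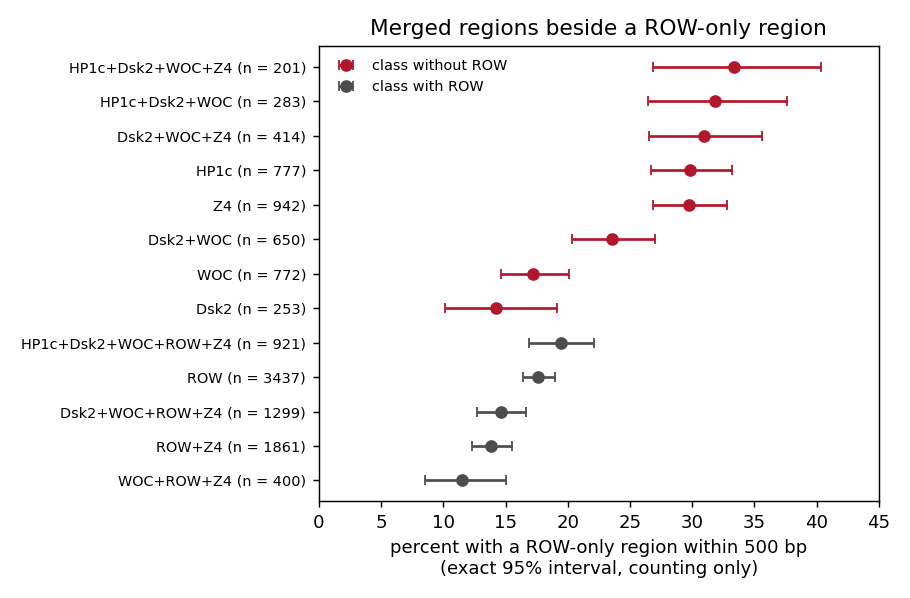
Percent of merged regions with a ROW-only region as the next merged region on a side, within 500 bp (horizontal axis, points with exact 95% intervals for counting). Classes of at least 200 merged regions are shown (vertical axis, upper group without ROW, lower group with ROW). HP1c alone, Z4 alone and the classes without ROW that hold 3 or 4 proteins lie at 29.7 to 33.3%, Dsk2 with WOC lies at 23.5%, and Dsk2 alone, WOC alone and the classes with ROW lie between 11.5 and 19.4%.

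Regions of the other lists that overlapped no ROW region were looked at list by list. Of the 1951 HP1c regions that overlapped no ROW region, 1200 (61.5%) had a ROW region within 500 bp, and 472 (24.2%, 22.3 to 26.2%) had a ROW-only region there. The share with a ROW-only region was 28.9% of the 1918 Z4 regions without ROW (26.9 to 31.0%), 21.0% of the 2862 such Dsk2 regions (19.5 to 22.5%) and 19.8% of the 3618 such WOC regions (18.5 to 21.1%). For Z4, 711 regions without ROW overlap had any ROW region within 500 bp, and 555 of them (78.1%) had a ROW-only region. For HP1c, Dsk2 and WOC this part was 39.3%, 35.9% and 37.2%, so that at most such regions the ROW regions nearby all overlapped another list. Of the 5562 overlapping ROW regions, 3259 overlapped Z4 alone. Beside a Z4 region that it does not overlap, such a ROW region needs a second Z4 region, at least 301 bp from the first. Part of the contrast between Z4 and the other lists is thus built into the rule, and how large a part was not tested.

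ROW-only regions also lay next to each other. When they were chained over distances of up to 2000 bp, 1660 (48.3%, 46.6 to 49.98%) fell into 674 clusters of 2 or more, with 467 pairs, 139 triples and 68 larger clusters. The overlapping ROW regions, which are more numerous, gave 56.1% by the same rule. In the order of the ROW list, the region after a ROW-only region was ROW-only in 46.4% of cases (1594 of 3435), and the region after an overlapping one in 33.1% (1835 of 5551). Runs of consecutive ROW-only regions held 2 members in 419 cases, 3 in 194, 4 in 92 and 5 or more in 101. Of these 101 runs, 27 lay on X, and 17 to 19 on each of 2L, 2R, 3L and 3R. X held 19.9% of the ROW-only regions, and 48.3% of its ROW regions were ROW-only, against 36.3% on those autosomal arms. A higher share gives more long runs by itself, and whether X had more than its share gives was not tested.

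The largest cluster lay on 3R from 11856351 to 11863812, where 10 ROW-only regions of 1 to 639 bp stood 302 to 1464 bp apart in 7462 bp. No region of any other list lay among them. The nearest Z4 region was 713 bp away, the nearest HP1c region 4443 bp, and the nearest WOC and Dsk2 regions 11322 and 11347 bp. The second cluster, on 2R from 1610525 to 1619126, held 8 regions of 19 to 1232 bp and was at least 20698 bp from any region of another protein. The third, on 2R from 6156980 to 6163353, also held 8 regions but enclosed 1 region each of HP1c, Dsk2, WOC and Z4 and 1 overlapping ROW region. The fourth held 7 regions on 2R (3138029 to 3145095) with 1 WOC region among them. The fifth held 6 on 3R (5258280 to 5265377), with 5 regions of the other lists inside, 2 of them Dsk2. Of the 5 clusters, 2 held no region of another protein and 3 held at least 1.

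The longest run in the ROW list was on X, from 12561887 to 12618254, where 12 ROW-only regions followed each other over 56368 bp. Their median width was 222.5 bp, the widest had 970 bp, and 4 were under 50 bp. The span held 3 WOC, 2 Dsk2, 1 Z4 and 1 HP1c regions. Another run on X, from 3572588 to 3646917, had 10 ROW-only regions among 15 WOC, 10 HP1c, 9 Dsk2 and 1 Z4 regions. The run spanned 74330 bp, and by its definition none of the other regions in it met a ROW region.

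The widest isolated region was on 2R, from 20892454 to 20894723, with 2270 bp and a ROW region 786 bp away. It was followed by regions of 1861 bp on 2L (5021667 to 5023527), 1804 bp on 3L (11279190 to 11280993) and 1718 bp on 3L (19064327 to 19066044). For the last of these the nearest region of any list was 2546 bp away. The other 6 of the 10 widest measured 1269 to 1476 bp and lay on 2L (2 regions), 2R (2 regions), 3L and 3R. Among them, a region of 1329 bp on 2R (15971223 to 15972551) had no ROW region within 160173 bp and no region of any kind within 8477 bp of it. None of the 10 was on X, where the widest ROW-only region had 1814 bp (19210137 to 19211950) and a ROW region 319 bp away.

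Of the 5 widest ROW-only regions with a near neighbour, 3 had another list as the nearest, at 62 to 145 bp. The widest of all, 2487 bp on 2R from 2766420 to 2768906, had an HP1c region 93 bp away. One of 2233 bp on 3R (11816572 to 11818804) had Dsk2 at 145 bp, HP1c at 246 bp and WOC at 361 bp. A region of 1924 bp on 2R (20874728 to 20876651) had HP1c at 62 bp. The other 2 of the 5 widest, of 2068 bp on 2R (11415567 to 11417634) and 1892 bp on 3R (24654309 to 24656200), had a ROW region as their nearest neighbour, at 325 and 355 bp. The 3 most remote ROW-only regions, of 16, 114 and 124 bp, all lay on Uextra, a collection of sequence not placed on the arms. There the spacing depends on how the pieces were joined. On chromosome 4 the widest ROW-only region was the one of 1081 bp given above. On the heterochromatic and unplaced sequences the widest measured 18 bp on 2LHet, 435 bp on 2RHet, 583 bp on 3LHet, 29 bp on 3RHet, 445 bp on XHet, 156 bp on U and 124 bp on Uextra.

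A larger share of the ROW regions was ROW-only on X than on the large autosomal arms. On X these were 683 of 1413 (48.3%, 45.7 to 50.98%), against 2698 of 7437 (36.3%, 35.2 to 37.4%) on 2L, 2R, 3L and 3R. The difference was 12.1 percentage points (Newcombe interval 9.24 to 14.9, counting only). The 4 autosomal arms were close to each other, at 37.7% on 2L, 34.2% on 2R, 38.2% on 3L and 35.4% on 3R. Of the ROW-only regions, 19.9% lay on X (18.5 to 21.2%), and of the overlapping ROW regions 13.1% (12.2 to 14.0%). Per Mb between the outermost regions, X had 30.5 ROW-only regions, against 28.0 on the autosomal arms, and 32.6 overlapping ROW regions, against 49.1. The density of overlapping ROW regions thus differed more between X and the autosomal arms than the density of ROW-only regions did. The lists hold no read numbers, so the reads and DNA copies behind each arm are unknown. Whether regions were called as readily on X as on the autosomal arms was not tested, and the difference cannot be told apart from unequal detection.

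**Figure D4:**
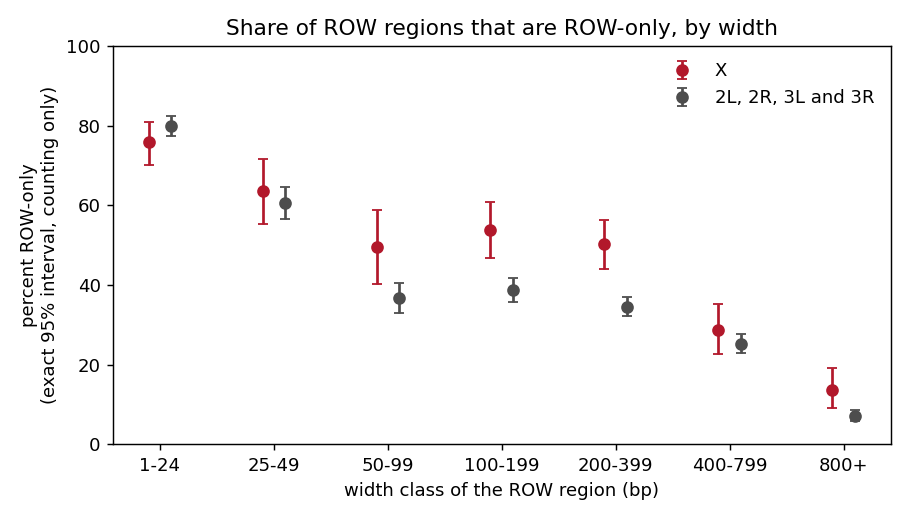
Percent of ROW regions that are ROW-only (vertical axis, exact 95% intervals for counting) in 7 width classes in bp (horizontal axis), for X and for the 4 arms 2L, 2R, 3L and 3R. X lies above the autosomal arms from 50 bp upwards, with intervals apart at 100 to 199 bp, 200 to 399 bp and from 800 bp, and the intervals overlap below 50 bp.

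The difference between X and the autosomal arms varied with width. At 100 to 199 bp, 53.8% of ROW regions on X were ROW-only (46.8 to 60.7%), against 38.6% on the autosomal arms (35.6 to 41.7%). At 200 to 399 bp the shares were 50.2% on X (44.1 to 56.3%) and 34.5% on the autosomal arms (32.1 to 37.0%). From 800 bp they were 13.6% on X (9.18 to 19.2%) and 7.09% on the autosomal arms (5.80 to 8.57%). In the other 4 classes the intervals overlapped. At 50 to 99 bp they barely did, with 49.6% on X (40.29 to 58.9%) and 36.6% on the autosomal arms (32.9 to 40.45%). The shares on X and on the autosomal arms were 75.9% and 79.96% at 1 to 24 bp, 63.6% and 60.7% at 25 to 49 bp, and 28.6% and 25.2% at 400 to 799 bp. Above 40 bp X had 39.4% (36.4 to 42.5%) and the autosomal arms 27.1% (26.0 to 28.2%). Up to 40 bp X had 73.1% and the autosomal arms 75.1%. ROW-only regions themselves were about as wide on X (median 98 bp) as on the autosomal arms (92.5 to 117.5 bp).

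The overlap of ROW with each other protein was compared between the arms in the same way. ROW regions overlapped Z4 in 45.1% of cases on X (42.5 to 47.7%) and in 60.2% on the autosomal arms (59.1 to 61.3%). WOC overlapped 20.7% on X and 22.6% on the autosomal arms, with overlapping intervals. Dsk2 overlapped 16.6% on X (14.7 to 18.6%) and 19.97% on the autosomal arms (19.1 to 20.9%). HP1c overlapped 5.52% (4.39 to 6.84%) and 8.08% (7.47 to 8.72%). When the Z4 list was left out of the merging, the difference in the ROW-only share fell to 3.45 points, while leaving out any other list gave 11.97 to 12.7 points. Z4 regions without any other protein were also more frequent on X, at 19.2% of its Z4 regions (17.1 to 21.6%), against 11.1% on the autosomal arms (10.3 to 11.9%). The same share was higher on X for the other lists too, with overlapping intervals. It was 6.91% on X and 4.85% on the autosomal arms for Dsk2, 14.5% and 13.1% for WOC, and 30.6% and 28.6% for HP1c. Z4 regions were less dense on X (54.7 per Mb) than on the autosomal arms (63.1 per Mb), and so were HP1c regions (21.2 and 22.7 per Mb). WOC (49.96 and 47.6 per Mb) and Dsk2 (40.1 and 38.5 per Mb) were not. Their part in the ROW-only share was not tested beyond leaving each list out.

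**Figure D5:**
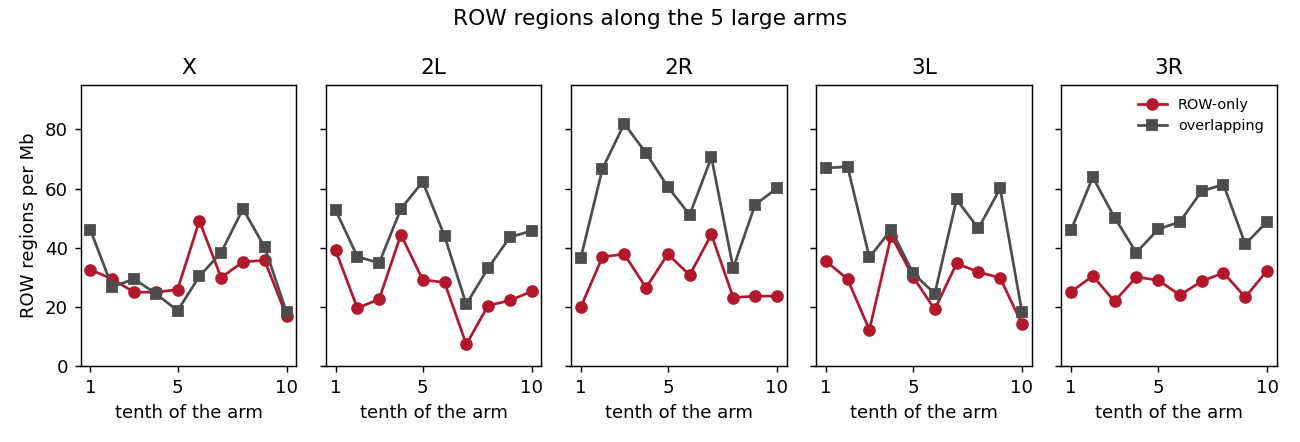
ROW regions per Mb (vertical axis) in 10 equal parts of each large arm (horizontal axis, numbered from the low end of the coordinates), for ROW-only regions and for ROW regions that overlap another list. The ROW-only line stays below the overlapping line in every part of the 4 autosomal arms and reaches or crosses it in several parts of X.

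Along the arms, the share was taken in 10 equal parts of each. In each of 10 equal parts of X the share of ROW regions that were ROW-only, from 39.9% to 61.8%, was above the autosomal share of 36.3%, while 18 of the 40 parts of the autosomal arms were above it (highest 49.0%). The sixth part of X, 11217195 to 13456845, had the most ROW-only regions of any part, 110 beside 68 overlapping ones (61.8%, 54.2 to 69.0%), and held the run of 12. The fewest, 17 beside 48, were in the seventh part of 2L, 13788496 to 16083472. Every 1 Mb bin of the 5 large arms had ROW-only regions, from 4 to 58 with a median of 27. Counts of ROW-only and overlapping ROW regions over these 116 bins had a Pearson r of 0.57 and a Spearman rho of 0.55. Over the 22 bins of X they were 0.44 and 0.37, and over the 94 bins of the autosomal arms 0.67 and 0.63, all given as a description because the bins share 1 library and 1 region caller.

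Chromosome 4, the small heterochromatin-rich autosome, had 30 ROW-only regions of 67 ROW regions (44.8%, 32.6 to 57.4%), too few to set apart from either X or the large arms. Their median width was 102.5 bp and 11 were isolated. None of its 67 ROW regions overlapped an HP1c region (exact upper limit 5.36%). HP1c regions were sparse there, at 8.25 per Mb against 22.7 per Mb on 2L, 2R, 3L and 3R, so few were available to overlap. The heterochromatic and unplaced sequences held 26 ROW-only regions of 82 ROW regions (31.7%, 21.9 to 42.9%), with 9 on 3LHet, 6 on 2RHet and at most 3 on each of the others. Isolated shares had overlapping intervals between the arms, with 33.7% of the ROW-only regions of X isolated (30.1 to 37.4%), against 31.2% on the 4 autosomal arms (29.5 to 33.0%).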

How the data were processed

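The data are 5 lists of called regions (chromosome, start and end, in dm3), 1 per immunoprecipitation, with positions printed as deposited. Per the series' design text the authors called regions against input. CASAVA 1.8, FastQC 0.9.3 and Bowtie 0.12.5 were named in the submitters' processing notes. No source used here gives the region caller, its threshold or the read length. The deposited positions carry no other unit, score or read number, so depth is unknown.

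Both ends were counted in, since a region can have equal start and end (200 in the ROW list), and distance is later start minus earlier end. Merging was checked with bedtools 2.31.1, which gave the same 3437 ROW-only regions, and tested on simulated data. Shares have Clopper-Pearson 95% intervals. Python 3.11.15, NumPy 2.4.6, SciPy 1.17.1, statsmodels 0.14.6 and matplotlib 3.10.9 were used.

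No annotation or genome of dm3 was used, so regions were assigned to no gene and no sequence is shown. Members and comparisons were chosen with earlier results of these data known. Named regions follow a rule: the 10 widest isolated, the 5 widest with a neighbour, the widest of each arm, the 5 largest clusters, the longest run, those at the 500 bp limit and the 3 most remote. The second run on X lies outside this rule and was chosen after its values were seen, as were the 40 bp edge and the comparison of X with the autosomal arms, by width too.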

Additional observations from a re-analysis of the deposited data

How the results depend on the processing

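No paired analysis was possible because each protein had 1 library. The number of ROW-only regions was 6696 without the Z4 list, 2142 when lists within 300 bp were joined, 1914 with the widest 50% of each list and 5429 with 200 bp around each midpoint. In the 8 other settings it was within 1.5 times 3437. The isolated share was 15.5%, 8.87% and 3.64% at 1000, 2000 and 5000 bp, 63.1% against ROW neighbours alone and 50.5% against the other 4 lists. It was 35.4% without HP1c, 33.8% without WOC, 35.4% without Z4, 38.1% and 51.1% with lists within 100 or 300 bp joined, 39.2% with regions of at least 50 bp, 53.6% with the widest 50% and 26.0% around midpoints. The median width was 177 bp without Z4, 107 and 111 bp with lists within 100 or 300 bp joined, 266 bp with regions of at least 50 bp and 507 bp with the widest 50%. Without Z4, 27.0% were under 50 bp. The X share of ROW-only regions was 16.4% without Z4, 17.7% with the widest 50% and 16.5% around midpoints. Clusters held 20.1%, 36.6% and 63.2% at linking distances of 500, 1000 and 5000 bp, and 42.5% with regions of at least 50 bp.

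The difference between X and the autosomal arms stayed positive in all 12 settings. It was 3.45 points without Z4, 3.72 around midpoints, 8.52 with lists within 300 bp joined, 7.84 at the autosomal mix of widths, 15.4 with regions of at least 50 bp and 15.3 with the widest 50%. A setting added after seeing the data kept regions above the width at which 10 bp counts dropped most in each list (40 or 41 bp for ROW, WOC and Z4, 49 or 50 bp for Dsk2 and HP1c). It left 2455 ROW-only regions, with 38.6% isolated, a median of 260 bp, 42.4% in clusters and a difference of 15.0 points. Fixed widths give no width result, and width minimums give no share under 50 bp. The causes of these shifts were not tested, except that fewer or narrower regions overlap less by construction. Depth being unknown, a protein's absence at a ROW-only region cannot be told apart from a signal under the threshold.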

Other observations

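The edge in the widths of the ROW-only regions was set beside the widths of the other lists, at the width where the count in the 10 bp up to it most exceeded that in the 10 bp above. The WOC list held 224 regions of 31 to 40 bp and 127 of 41 to 50 bp, with 49 of exactly 40 bp and 15 of 41 bp. For the Z4 list this width was 41 bp, with 203 regions in the 10 bp up to it and 83 in the 10 bp above, but 12 at 41 bp and 12 at 42 bp, so no drop fell at that base. For Dsk2 it was 49 bp (180 and 85 regions, with 37 at 49 bp and 9 at 50 bp), and for HP1c 50 bp (165 and 80 regions, with 9 at 50 bp and 6 at 51 bp). The share of regions up to this width was 20.3% for ROW, 14.8% for WOC, 14.7% for Z4, 18.4% for Dsk2 and 29.3% for HP1c, and 39.8% for the ROW-only regions (38.2 to 41.5%). What sets these widths was not tested.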
